A study of Nothobranchius furzeri with 10 samples.

Results

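The 200 genes described here are those whose levels varied most between livers of the same group in male turquoise killifish, Nothobranchius furzeri, which lives only months and serves as a model of ageing. They were chosen by the measured spread itself. Of 26739 genes in the deposited count table, 15621 passed a filter on low counts, and 6520 of these averaged from 10 to under 1000 CPM, the counts scaled to a common library size (TMM factors). In 5975 of the 6520 the CPM ranges of the 2 groups overlapped, and these ranked genes were ordered by the square root of the mean of the 2 within-group variances of log2(CPM + 1), called the spread below. All 200 passed the count filter.

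Livers of 10 fish were sequenced, 5 after a swim tunnel (exercised) and 5 from fish with no exercise (control). All fish were males of 10 weeks and of the same transgenic strain, line 4010; Tg(mylz2:egfp,tfam), so the controls carry the transgene too. In zebrafish the mylz2 promoter is active in fast skeletal muscle, and Tfam is a mitochondrial transcription and DNA-packaging factor. The labels name no tank, day or sequencing batch, and do not say whether the fish were reared apart, so differences between livers may include technical ones. Library totals lay between 26850938 and 40089247 counts.

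The liver makes most blood plasma proteins and handles sugars, fats, bile acids and foreign compounds. Its transcripts change with feeding, time of day, infection and hormones, so livers of fish kept alike can differ in whole sets of genes at once. A bulk liver sample also holds blood, immune, bile duct and connective tissue cells and may include tissue attached to the organ. More cells of a type and more RNA per cell cannot be told apart in such samples. The tables name genes only by identifiers, and 0 of the 26739 were found in the reference gene table. The identity of the tissue could therefore not be checked by markers, and RNA from another tissue was not tested for any set of genes below.

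The spread of the 200 genes had a median of 1.29 on the log2 scale with quartiles of 1.17 and 1.57, against a median of 0.291 over all ranked genes. It ran from 4.36 at rank 1 to 1.063 at rank 200, and the genes at ranks 201 and 202 had 1.061 and 1.061, so no gap separates the members from the next genes. These values chose the genes and are given as a description. The highest liver exceeded the lowest by a median of 18.1-fold in CPM, where counts under 3 were set to 3, against 2.03-fold over all ranked genes. In 185 of the 200 genes this ratio was at least 10, in 26 at least 100 and in 12 at least 1000. Counting error, computed as Poisson error of the counts, made up a median of 0.168% of the squared spread and at most 0.661% in any of the 200. Over all ranked genes the median was 2.78%. The lower share in the 200 follows in part from their choice by a large spread.

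**Figure D1:**
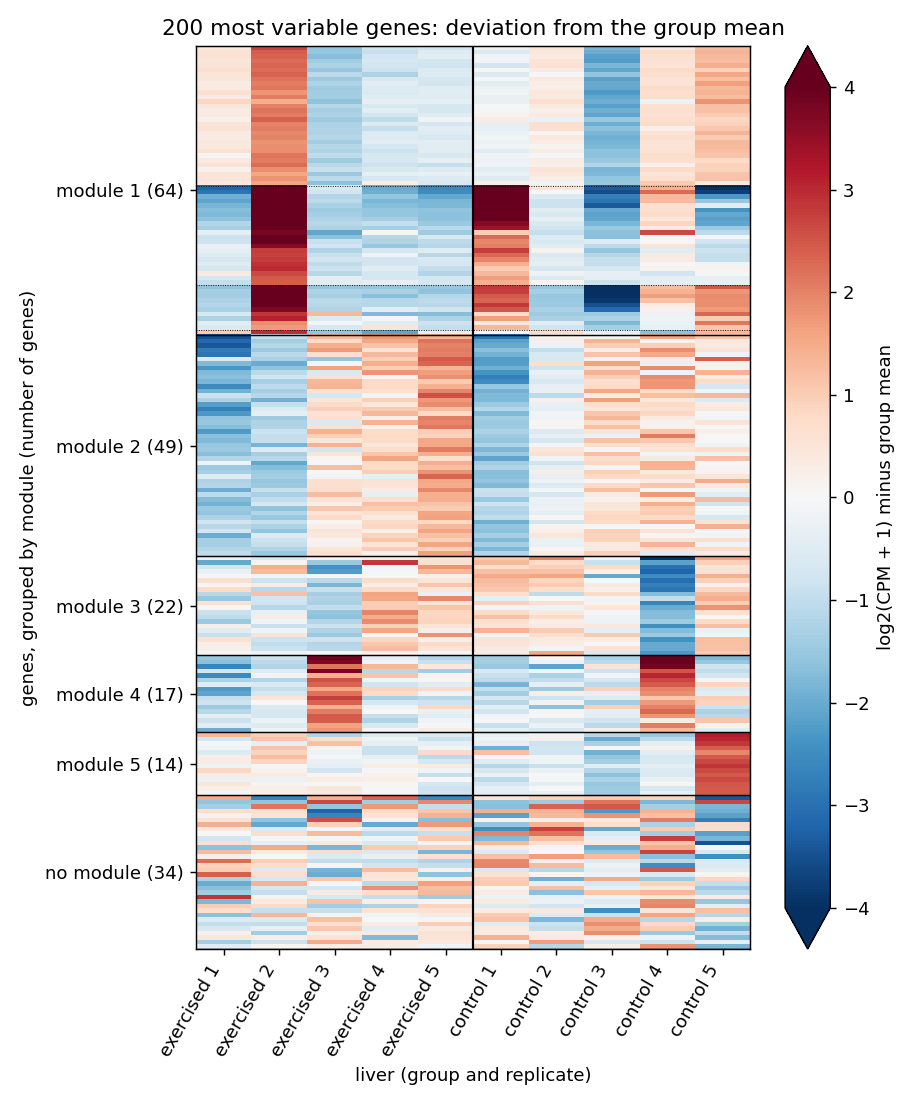
Deviation of log2(CPM + 1) from the group mean for the 200 genes (rows, grouped by module, with dotted lines between the branches of module 1) in each of the 10 livers (columns). Module 1 was highest in exercised replicate 2, module 4 was high in exercised replicate 3 and control replicate 4, and module 5 was high in control replicate 5.

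Most of the 200 genes varied in company. Genes were grouped by the Pearson correlation of their deviations from the group mean over the 10 livers, with average linkage and a mean correlation of 0.5 at the cut. This gave 5 modules of at least 10 genes, with 64, 49, 22, 17 and 14 genes. They held 166 of the 200 genes, or 83%, and 34 genes were in no module. Other ranked genes were not grouped in this way, so the 83% has no background share beside it. The mean correlation between genes was 0.756, 0.822, 0.704, 0.753 and 0.802 in modules 1 to 5. Among all pairs of the 200 genes, 10.8% had an absolute correlation over 0.8, against 2.61% among all pairs of ranked genes. The mean absolute correlation differed less, 0.411 against 0.336. Genes of a library share its depth and scaling, and each correlation rests on 10 livers, so these are descriptions.

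Exercised replicate 2 held the largest part of the spread. Of the summed squared deviations of the 200 genes from their group means, 25% came from this liver, against 14.7% over all ranked genes. The next were control replicate 1 with 12.5% against 10.8%, control replicate 3 with 10.9% against 9.98% and control replicate 4 with 10.3% against 12.9%. Control replicate 2 held the least, 3.1% against 4.45%. Exercised replicate 2 was the farthest of all livers from its group mean in 61 of the 200 genes, or 30.5%, against 5.57% of all ranked genes, and it was high in 55 of the 61. Control replicate 4 came next with 34 genes, or 17%, which is below its 19.3% of all ranked genes; 16 were high and 18 low. Exercised replicate 1 was farthest in 24 genes, 21 of them low, or 12% against 6.14%. Control replicate 5 was farthest in 23 genes, 16 of them high, or 11.5% against 14.5%. In 41 genes, or 20.5%, a single liver held over 50% of the squared deviations, as it did in 14.7% of all ranked genes. Without exercised replicate 2, a new ranking kept 159 of the 200 genes. Leaving out any other single liver kept 166 to 188.

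**Figure D2:**
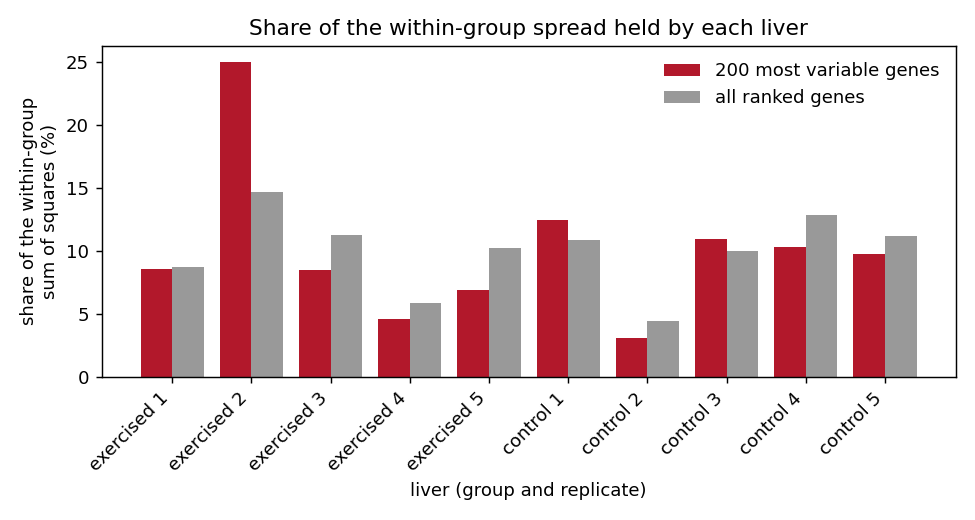
Share of the within-group sum of squares of log2(CPM + 1) held by each liver, in percent, for the 200 most variable genes (red) and for all 5975 ranked genes (grey). Exercised replicate 2 held 25% for the 200 genes and 14.7% for all ranked genes.

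Module 1 held 16 of the 20 genes of largest spread, though its median spread of 1.35 was below the 1.41 of module 4. All 64 genes of module 1 were highest among exercised livers in exercised replicate 2. The median level of its genes was 198 CPM there, against 15.5, 7.89, 9.25 and 8.99 CPM in exercised replicates 1, 3, 4 and 5. In control replicates 1 to 5 it was 93, 24, 8.09, 44.4 and 59.9 CPM. The 64 genes took 3.54% of all counts in exercised replicate 2 and 2.41% in control replicate 5, and from 0.166% to 1.21% in the other livers. The module divided into 3 branches at a mean correlation of 0.8, a height chosen after the data were seen, with 31, 22 and 10 genes and 1 gene outside. Without exercised replicate 2 the mean correlation of the 64 genes fell from 0.756 to 0.516, and without control replicate 3 as well to 0.211. Among exercised livers alone it was 0.9 and among control livers 0.549. With a new choice and grouping, 15 of the 64 stayed together without exercised replicate 2 and 41 without control replicate 3.

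Branch 2, with 22 genes, contained the gene at rank 1 and 7 of the 10 genes of largest spread. Nfu_g_1_007317, the gene at rank 1, stood at 3022 CPM in exercised replicate 2, and at 0.0414, 5.12, 1.33 and 0.575 CPM in exercised replicates 1, 3, 4 and 5. In control replicates 1 to 5 it stood at 1222, 35.1, 1.57, 68.5 and 0.487 CPM. This gene was high in exercised replicate 2 and control replicate 1, intermediate in control replicates 2 and 4 and close to 0 in the rest, so that both groups hold livers at each extreme. The level in exercised replicate 2 was 5259-fold that in exercised replicate 5, where 15 reads were counted. The exercised and control means were 606 ± 1351 and 266 ± 536 CPM (SD, n = 5 each), a log2 change of 1.19 (edgeR's quasi-likelihood test, adjusted p = 0.806).

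The genes of branch 2 followed the same livers. The median level of all 22 was 178 CPM in exercised replicate 2 and between 2.7 and 3.49 CPM in the other exercised livers. In control replicates 1 to 5 it was 73.5, 7.51, 1.81, 14.5 and 4.81 CPM. Control replicate 1 was the highest control liver in 21 of the 22 genes. Between the 2 high livers the ratio was narrow, with exercised replicate 2 at a median of 2.41 times control replicate 1 and quartiles of 1.92 and 2.72. Against exercised replicate 5 it was wide, with a median of 38.5-fold and quartiles of 14.9 and 831 among the 20 genes with over 3 counts there. Some genes of this branch thus had a level of several CPM in the low livers and others almost no reads. Those others met the lower limit of mean CPM only through their high livers, so their wide contrast follows in part from the choice.

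Branch 3, with 10 genes, shared the high livers of branch 2 but was also high in control replicate 5. Its median level was 101 CPM in exercised replicate 2 and between 0.352 and 0.796 CPM in the other exercised livers. In control replicates 1 to 5 it was 88.9, 9.94, 0.681, 37.1 and 81.7 CPM. Not all of its genes were close to 0 in the low livers. The highest values among them were 22.4, 56.8, 52.9 and 23.1 CPM in exercised replicates 1, 3, 4 and 5. As in branch 2, genes with almost no reads there met the required mean of 10 CPM through the livers where they were high. The gene at rank 3 belonged here, with 323 CPM in exercised replicate 2 and from 0.414 to 0.498 CPM in the other exercised livers. It stood at 400, 18.1, 0.8, 131 and 317 CPM in control replicates 1 to 5. Branches 2 and 3 therefore differed in control replicate 5, which had 4.81 CPM for the first and 81.7 CPM for the second.

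Branch 1, the largest with 31 genes, moved less and in close parallel. Its median level was 77.8, 251, 24.4, 36.9 and 40.8 CPM in exercised replicates 1 to 5 and 101, 148, 27.6, 195 and 289 CPM in control replicates 1 to 5. Control replicate 5 was the highest control liver in 30 of the 31 genes, and control replicate 3 the lowest in all 31. Exercised replicate 2 stood at a median of 11 times exercised replicate 3, with quartiles of 9.72 and 12.4 and a range of 7.41 to 19.5. Against exercised replicate 4 the median ratio was 6.51, with quartiles of 5.84 and 8.52 and a range of 2.53 to 12.2. Branches were cut by correlation, so the genes of a branch move in parallel in part by that choice. The mean correlation was 0.964 over all livers, 0.976 among the exercised and 0.96 among the control livers. Without exercised replicate 2 it was 0.949, and without control replicate 1 as well it was 0.957. The same values for branch 3 were 0.836 and 0.831. For branch 2 they were 0.829 and 0.499, so its co-variation rested in part on those 2 livers, which are its highest. Branches 1 and 3 deviated most among control livers in control replicate 3, by a mean of -1.86 and -3.04 on the log2 scale. In control replicate 1 these means were -0.218 and 1.98. The values therefore do not show that branches 1 and 3 rest less on single livers.

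**Figure D3:**
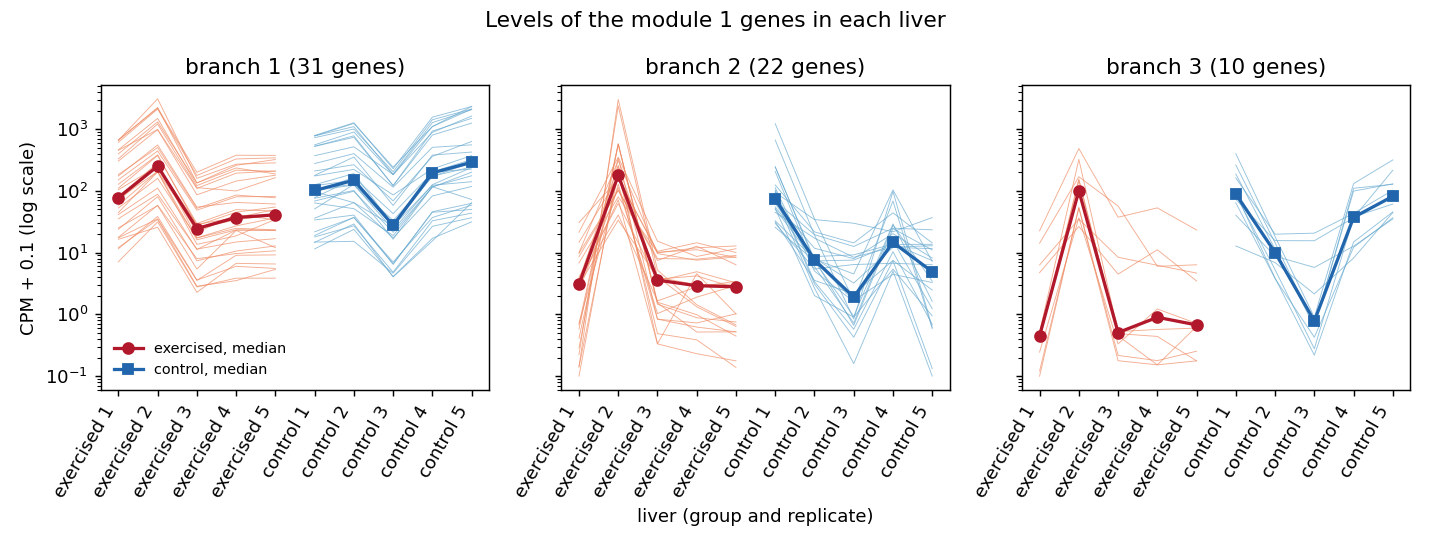
Level of each gene of the 3 branches of module 1 in each liver, as CPM + 0.1 on a log scale. Thin lines join the values of 1 gene within a group, and thick lines with points join the branch medians (red circles exercised, blue squares control); branch 2 was at 178 CPM in exercised replicate 2 and 73.5 CPM in control replicate 1, and between 1.81 and 14.5 CPM elsewhere.

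Module 2, with 49 genes, had low livers in both groups and a high one among the exercised. Exercised replicates 1 and 2 had median levels of 11.9 and 12.5 CPM, and exercised replicates 3, 4 and 5 had 58.8, 57.5 and 108 CPM. Exercised replicate 5 was the highest exercised liver in 36 of the 49 genes. It held 18.4% of the squared deviations of the module. Exercised replicate 1 held 22.7%, control replicate 1 19.9% and exercised replicate 2 11%. Control replicate 1 was the lowest control liver in all 49 genes, with a median of 10.6 CPM, and control replicates 2 to 5 had 31.6, 66.7, 60.2 and 39.3 CPM. The leading gene, Nfu_g_1_008727, stood at 32.4, 203, 953, 1315 and 977 CPM in exercised replicates 1 to 5 and at 37.4, 308, 299, 821 and 612 CPM in control replicates 1 to 5. It was lowest in replicate 1 of each group, which share a number only by the order of accession. Without exercised replicate 1 the mean correlation of its genes was 0.806, and without control replicate 1 as well it was 0.73. With a new choice and grouping, 29 of the 49 stayed together without control replicate 1 and 32 without exercised replicate 5. Exercised replicate 2 and control replicate 1, low here, were the highest livers of branch 2 of module 1. The mean profiles of modules 1 and 2 correlated at -0.59 over the 10 livers.

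Modules 3 and 4 moved in opposite directions in control replicate 4 and, less sharply for module 3, in exercised replicate 3. The 17 genes of module 4 had a median of 243 CPM in exercised replicate 3 and of 171 CPM in control replicate 4. The other exercised livers lay between 9.28 and 23.5 CPM and the other control livers between 7.06 and 16.3 CPM. All 17 genes were highest among exercised livers in exercised replicate 3, and 16 were highest among control livers in control replicate 4. Nfu_g_1_002249, its leading gene, stood at 430 CPM in exercised replicate 3 and at 9.28, 15.1, 22.4 and 12 CPM in exercised replicates 1, 2, 4 and 5. It stood at 348 CPM in control replicate 4 and at 5.02, 15, 5.51 and 3.57 CPM in control replicates 1, 2, 3 and 5. One liver of each group was thus over 10 times as high as the rest of its group, and the groups overlapped.

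The 22 genes of module 3 were all lowest among control livers in control replicate 4, with a median of 7.25 CPM, against 59.5, 70.4, 52.3 and 68.6 CPM in control replicates 1, 2, 3 and 5. In exercised replicates 1 to 5 the medians were 11.7, 21.6, 7.77, 32.2 and 34.4 CPM. Exercised replicate 3 was the lowest exercised liver in 12 of the 22 genes. It held 12.1% of the squared deviations of module 3, against 10.2% in exercised replicate 4 and 40.6% in control replicate 4. Nfu_g_1_008185, its leading gene, stood at 8.79 CPM in control replicate 4 and at 482, 896, 203 and 699 CPM in control replicates 1, 2, 3 and 5. In exercised replicates 1 to 5 it stood at 136, 103, 174, 182 and 234 CPM, a narrow range. Its spread of 1.91 fell to 0.741 without control replicate 4, below that of the last of the 200 genes. The mean profiles of modules 3 and 4 correlated at -0.77 over the 10 livers.

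Measures of the libraries were also extreme in the 2 livers that stood out in module 4. Exercised replicate 3 and control replicate 4 had the lowest TMM scaling factors of their groups, 0.896 and 0.718, where the next were 0.972 and 0.9. They also had the largest shares of counts in the 100 most abundant genes, 52.4% and 55.6%, where the next of each group had 44.3% and 50%. The next in both measures were exercised replicate 5 and control replicate 2. These had the highest module 3 medians of their groups, 34.4 and 70.4 CPM, and module 4 medians of 23.5 and 14.3 CPM. By single genes they were less often the highest. Exercised replicate 5 was the highest exercised liver in 8 of the 22 genes of module 3, and exercised replicate 4 in 14. Control replicate 2 was the highest control liver in 4, control replicate 5 in 9 and control replicate 1 in 8. The part of the scaling factors and of the most abundant genes in the modules was not tested. Without exercised replicate 3 and control replicate 4 the mean correlation within module 4 was 0.134 and within module 3 it was 0.331. With a new choice and grouping, 5, 10 and 11 of the 17 genes of module 4 stayed together without exercised replicate 3, control replicate 4 and control replicate 1. Of module 3, at most 1 gene fell in any single module without control replicate 4.

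Module 5, with 14 genes, rested on 1 liver. All 14 genes were highest among control livers in control replicate 5, with a median of 96.1 CPM, against 10, 11.7, 5.1 and 11.5 CPM in control replicates 1 to 4. Exercised livers lay between 8.28 and 19.1 CPM. Control replicate 5 held 57.9% of the squared deviations of this module, and without it the mean correlation fell from 0.802 to 0.271. In the exercised livers alone it was 0.16. With a new choice and grouping, 0 of the 14 were in a module without control replicate 5, and 9 stayed together without exercised replicate 5.

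**Figure D4:**
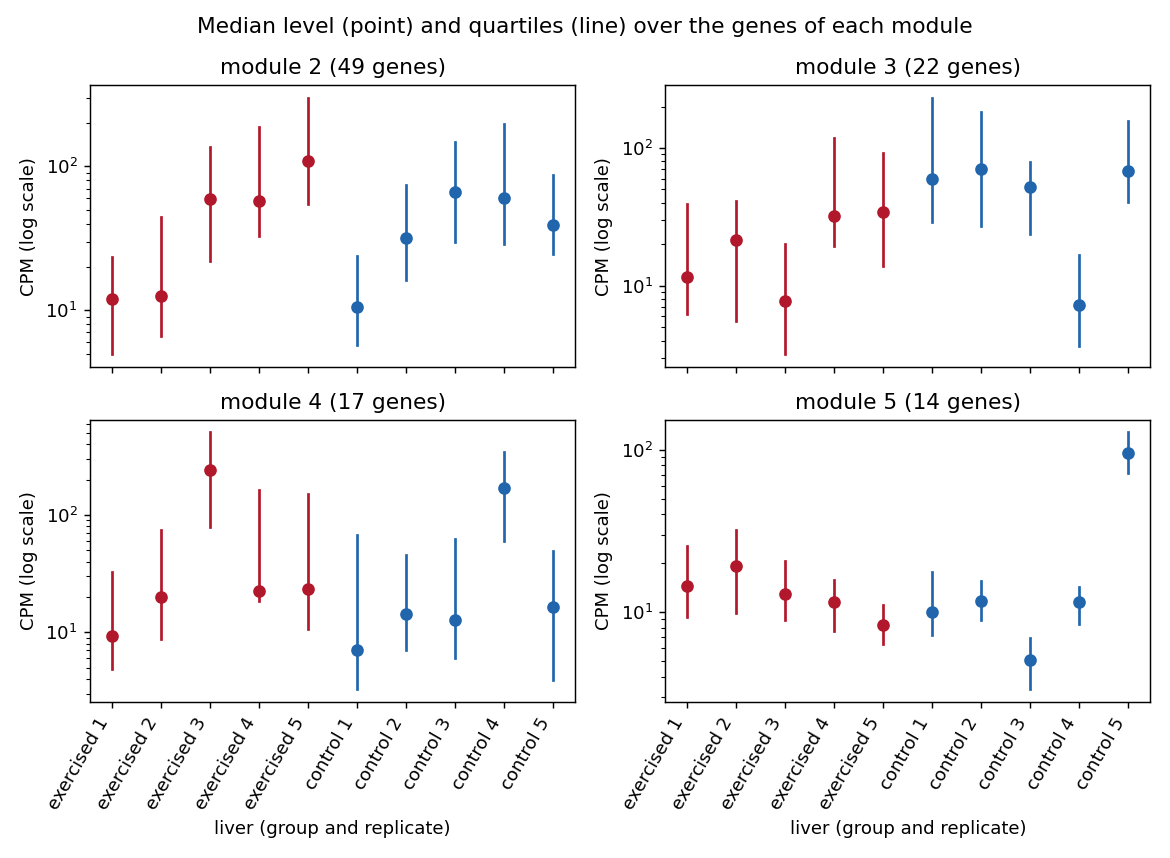
Level of the genes of modules 2 to 5 in each liver, in CPM on log scales, with the median over the genes of a module as a point and the quartiles as a line (red exercised, blue control). Module 5 stood at 96.1 CPM in control replicate 5 and between 5.1 and 19.1 CPM in the other livers.

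The modules reached beyond the 200 genes. Over all 15621 tested genes, those with a correlation over 0.9 with the mean profile of a module over the 10 livers numbered 89, 175, 31, 140 and 428 for modules 1 to 5. They made up 0.57%, 1.12%, 0.198%, 0.896% and 2.74% of the tested genes. These include genes of the modules themselves, and 75, 140, 22, 133 and 419 of them were not among the 200. Genes with a correlation under -0.9 numbered 31, 95, 34, 38 and 22, for module 3 more than those over 0.9. Of the 428 that followed module 5, 367 averaged under 10 CPM. Of the 140 that followed module 4, 11 were among the 192 genes at 1000 CPM or more, and their part in the scaling was not tested. For module 1, whose mean blends 3 branches, 14 of its own 64 genes passed this value. A profile with 1 high liver is matched by any gene high in that liver, and the limit of 0.9 was set after the data were seen.

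The 34 genes in no module included some with 2 separate levels. By a rule written after the values were seen, the 10 livers had to fall into 2 sets of at least 2 livers, parted by a gap of at least 2 on the log2 scale that spanned at least 50% of the range. This held for 13 of the 200 genes, 7 of them in no module, and for no ranked gene outside the 200, so for 0.218% of all ranked genes. A gap of that size between livers of the same group itself makes a large spread. The absence outside the 200 therefore follows in part from how the 200 were chosen. Nfu_g_1_004868, at rank 19, stood at 0.178, 0.268 and 0.162 CPM in exercised replicates 2 and 5 and control replicate 5, from 5 to 7 reads each. In exercised replicates 1, 3 and 4 it stood at 19.9, 19.2 and 37 CPM, and in control replicates 1 to 4 at 17, 22.6, 24.3 and 21.7 CPM. Nfu_g_1_021249, at rank 20, stood between 18.2 and 34.6 CPM in exercised replicates 3 and 5 and control replicates 3 and 5, and between 0.614 and 1.09 CPM in the other 6 livers. Both genes were singled out after their values were seen. The 7 genes in no module had 7 different sets of high livers, and in 12 of the 13 genes each level held livers of both groups.

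Genes were also chosen by their SD in one group alone and examined in the other. The other group entered this choice only through the CPM window and the overlap of ranges that all ranked genes had to meet; with no overlap required, the share below was 52%. Of the 200 ranked genes with the largest SD among exercised livers, 105, or 52.5%, were also among the 200 with the largest SD among control livers. The share that 200 genes make of all ranked genes is 3.35%. Genes chosen in exercised livers had a median SD of 1.11 on the log2 scale in control livers, against 0.289 over all ranked genes, and 99% lay above that median. Those chosen in control livers had a median SD of 1.14 in exercised livers, against 0.273, and 95% lay above it. Of the 105 shared genes, 51 belonged to module 1 and 22 to module 2. The shared percentage was 36% without exercised replicate 2 and 31.5% without both it and control replicate 1, and it was between 47% and 59% without any other single liver.

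Modules formed in one group were also correlated, less tightly, in the other. Among the 200 genes chosen and grouped in exercised livers alone, 1 module of 71 genes, 63 of them in module 1, had a mean correlation of 0.858 there and of 0.506 in control livers. A module of 92 genes, 47 of them in module 2, had 0.763 and 0.456, and another of 20 genes had 0.868 and 0.626. All pairs of those 200 genes averaged 0.102 in control livers. The 6 modules formed in control livers alone had mean correlations of 0.279 to 0.681 in exercised livers, where all pairs of their 200 genes averaged 0.0249. This did not hold for every set of genes. The 14 genes of module 5 had a mean correlation of 0.893 in control livers and of 0.16 in exercised livers. Of these, 13 fell in a larger module of 63 genes formed in control livers. Each correlation rests on 5 livers.

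**Figure D5:**
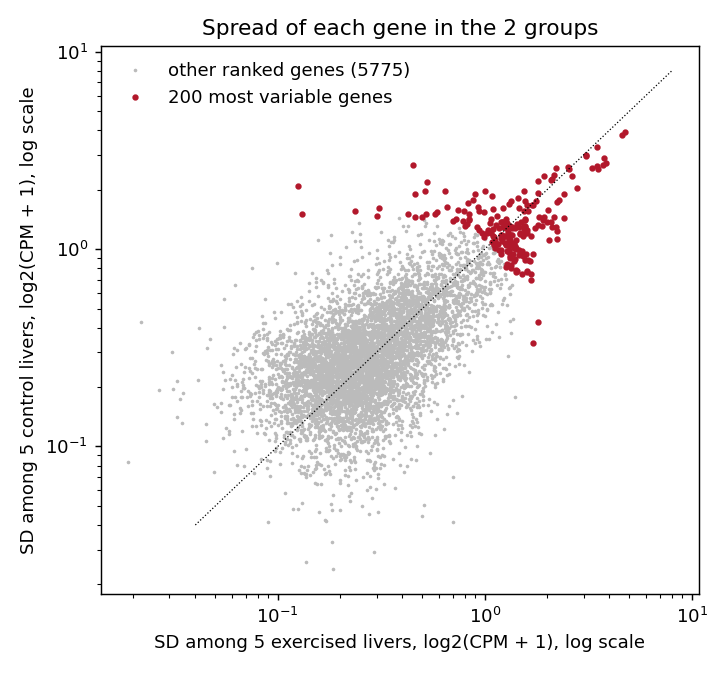
SD of log2(CPM + 1) among the 5 exercised livers (horizontal) and the 5 control livers (vertical), both on log scales, for the 200 most variable genes (red) and the other ranked genes (grey), with a dotted line of equal SD. The 200 genes lie at the upper right because their spread chose them; 123 of them had the larger SD among exercised livers.

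The median SD of the 200 genes was 1.37 on the log2 scale among exercised and 1.3 among control livers. The SD was larger among exercised livers in 123 of the 200 genes, or 61.5%, and in 47.2% of all ranked genes. In module 1 this was so for 53 of 64 genes and in module 2 for 43 of 49. In modules 3, 4 and 5 it was so for 8 of 22, 8 of 17 and 0 of 14. No test of the difference in spread was made, since genes that vary together are not independent.

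None of the 200 genes was called between exercised and control livers (adjusted p under 0.05 in edgeR's quasi-likelihood test), where 3.29% of the 15621 tested genes were. The overlap of the group ranges was part of the choice, and of all ranked genes 0.787% were called, so nothing is read from the 0. At an unadjusted p under 0.05 there were 19 of the 200, or 9.5%, against 21.5% of all tested genes. DESeq2 called 9 of the 168 members to which it gave an adjusted p, or 5.36%, against 10.9% of all such genes, and limma-voom called 0, against 3.49%. Without exercised replicate 2 edgeR called 6 of the 200, or 3%, against 1.29% of all tested genes. Without control replicate 4 it called 10, or 5%, against 5.18%. The shares set beside these counts cover tested genes whose group ranges did not have to overlap, so nothing is read from these either. The median absolute log2 change was 0.753 for the 200 genes and 0.298 for all tested genes. Module 3 had a median log2 change of -1.33 and module 5 of -1.0, module 1 of -0.52, and modules 2 and 4 of 0.24 and 0.29. In module 5 control replicate 5 alone was high, with a median of 96.1 CPM. The other control livers had 5.1 to 11.7 CPM there and the exercised livers 8.28 to 19.1 CPM.

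The median length of the 200 genes was 2188 bases with quartiles of 1271 and 4060 bases, against 3451 bases with quartiles of 1864 and 5642 bases for all ranked genes. The median was 1393 bases in module 1 and 2973 bases in module 2, the lowest and highest of the 5 modules. Lengths were recovered from the ratio of the deposited counts and RPKM.

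Some of the 200 genes carried consecutive identifier numbers. There were 6 such pairs, and 10.9% of the ranked genes with a number next to one of the 200 were themselves among them, against 3.35% of all ranked genes. In 4 pairs both genes were in module 1 and stood in adjacent rows of the table, with correlations of 0.896 to 0.998. The genes at ranks 1 and 2 form 1 of these pairs, with a correlation of 0.995. The other 2 pairs were split between modules. What the numbering follows is not given in the sources used here, and reads divided between near-identical copies were not examined.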

How the data were processed

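Total RNA of 10 livers was made into libraries with a TruSeq RNA version 2 kit, as the labels' protocols state. STAR 2.4.1d, featureCounts 1.4.6-p4 and bcl2fastq 1.8.4 are named in the submitters' processing notes; the build, the annotation and the strand setting were not given in the sources used. Whole reads per gene, not normalized, were deposited as counts, 1 column per library. The deposited RPKM values were used only for gene lengths: with library totals that step from row to row, count and length rebuilt 99.997% of the cells within 0.0011 RPKM or 0.05% of the value.

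Genes were filtered with filterByExpr by group (minimum count 10, minimum total 15), and CPM were scaled with TMM factors (edgeR 4.0.16, R 4.3.3). Groups came from the perturbation label, and replicates were numbered in accession order, which pairs no samples. Members, lists and tests were chosen with earlier results of these data known, so no p-value is given for a set of members. The group test was edgeR's quasi-likelihood test on all tested genes (two-sided, Benjamini-Hochberg adjusted, threshold 0.05). DESeq2 1.42.0, limma-voom (limma 3.58.1), other scalings, filters, pseudocounts, measures of spread and clustering settings, and each liver left out, were alternatives. The choice, the clustering and the group test were checked on simulated data. Such a check does not show how firmly the chosen genes or the modules hold in these livers. In each of the 4 largest modules the gene with the largest spread was named. Lists of cell type markers could not be matched to identifiers. Where samples were not raised apart, p-values cover only the variation among these 10 livers, which may be technical.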

Additional observations from a re-analysis of the deposited data

Results flagged for a closer look

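Among the 5 livers of a group, the highest or lowest was marked if more than 0.71 of the range of the group lay between it and its nearest neighbour. For normally distributed values chance gives this in about 1 of 20 groups. The CPM and shares were examined here without logs, so that rate need not hold for them. Of 28 groups of values examined, 15 were marked; the values overlap, and the genes were chosen for wide variation, so such gaps follow in part from that choice.

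Exercised replicate 2 was marked for Nfu_g_1_007317 with 3022 CPM, next 5.12, and for the median level of module 1 with 198 CPM, next 15.5. In branches 1, 2 and 3 of module 1 it was marked with median levels of 251, 178 and 101 CPM, next 77.8, 3.49 and 0.796. It was also marked for the share of counts in the 200 genes with 4.26%, next 2.18%, and for the share of their spread with 25%, next 8.55%. Exercised replicate 3 was marked for Nfu_g_1_002249 with 430 CPM, next 22.4, and for the median level of module 4 with 243 CPM, next 23.5.

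Among control livers, replicate 1 was marked for Nfu_g_1_007317 with 1222 CPM, next 68.5, and for branch 2 of module 1 with 73.5 CPM, next 14.5. Replicate 4 was marked for Nfu_g_1_002249 with 348 CPM, next 15, for module 4 with 171 CPM, next 16.3, and for a low level of module 3 with 7.25 CPM, next 52.3. Replicate 5 was marked for module 5 with 96.1 CPM, next 11.7.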

How the results depend on the processing

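No paired analysis was possible because the labels give the groups no shared replicate numbers. Of the 200 genes, 168 to 199 were chosen again under the other scalings, pseudocounts and filter, the excess over abundance, or with no overlap of ranges required; the median absolute deviation kept 122, the top 100 is by construction 100 of them, and leaving out 1 liver kept 159 to 188. The share of the spread in exercised replicate 2 ranged from 21.3% to 29.9%. The percentage shared between the groups was 36 to 59 with 1 liver left out and 31.5 without exercised replicate 2 and control replicate 1. There were 3 modules with the median absolute deviation and 4 to 6 otherwise. Of the 64 genes of module 1, 15 to 63 stayed together with 1 liver left out, lowest without exercised replicate 2 (15) and control replicate 3 (41). Without exercised replicate 2 and control replicate 1 it was 27, with the median absolute deviation 38 and with complete linkage 31. With the top 100 it was 39, which is every gene of module 1 among them. In modules 2 to 5, 83 of 108 such values stayed within 1.5 times. With the top 100, module genes ranked after 100 could not be counted in any module. Module 5 was lost (0) without control replicate 5. Without control replicate 4, at most 1 gene of module 3 fell in any single module. Complete linkage left 0 genes of modules 3 and 4 in a module. Of the 200 genes DESeq2 called 9, and leaving out 1 liver gave 0 to 10. Of all tested genes 514 were called, 1619 by DESeq2, and 79 to 823 with 1 liver left out: 135, 204 and 87 without exercised replicates 1, 2 and 4, and 126, 79, 278, 823 and 299 without control replicates 1 to 5. Without exercised replicate 2 and control replicate 1 edgeR called 0. The spread of the 4 named genes stayed within 25% in 83 of 88 values. Some of these could not move: the other measures of spread, the top 100 and 400 and no required overlap reuse the main value. Without exercised replicate 2 the spread of Nfu_g_1_007317 was 2.87. The omission of 2 livers and all alternatives for the sharing between groups were added after seeing the data. The cause was not tested.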
